A study of Mus musculus with 11 samples.

Results

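The BCL2 family decides whether a stressed cell keeps an intact mitochondrial outer membrane. Anti-apoptotic members hold the membrane closed by binding their pro-apoptotic relatives, the effectors form pores in it, and BH3-only members sense stress and either block the anti-apoptotic proteins or engage the effectors directly. Early B cells depend on this balance, since IL-7 and pre-B cell receptor signals keep them alive largely through it. The 10 genes described here were chosen by name, with earlier results of these data known. They were the anti-apoptotic Bcl2, Bcl2l1 and Mcl1, the effectors Bax and Bak1, and the BH3-only genes Bcl2l11, Bid, Bad, Bbc3 and Pmaip1. All 10 were among the 24319 genes in the files, and all 10 passed the filter on low values that left 11110 genes to test.

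RNA sequencing was done on 11 libraries from C57BL/6J mice, and the study compared leukemic with non-leukemic early B cells. The B-ALL group held lymph node cells from B cell acute lymphoblastic leukemias of 3 animals with the genotype Ebf1+/- Pax5+/-, numbered 686, 713 and 760, each sequenced as 2 libraries. The dHet proB group (3 libraries) held c-Kit+ fetal liver cells of the genotype Ebf1+/- Pax5+/- Rag2-/-, expanded on OP9 stromal feeders with IL-7, Flt3 ligand and SCF. The wt proB group (2 libraries) held sorted FrBC cells from bone marrow of Ebf1+/+ Pax5+/+ Rag2+/+ animals. B-ALL and dHet proB cells thus shared the loss of 1 allele of Ebf1 and of Pax5. Only dHet proB is described as cultured with cytokines or as Rag2-/-, and only these cells came from fetal tissue. In comparisons with dHet proB, tissue, culture, cytokines and Rag2 genotype changed together, and leukemia with them for B-ALL. Between B-ALL and wt proB, leukemia and tissue changed together. Against wt proB the Ebf1 and Pax5 genotypes changed as well. Within each comparison these factors cannot be told apart. Whether each proB library had its own animal or culture is not stated in the labels. The p-values of the group comparisons rest on 1 pooled spread, between mice in B-ALL and between libraries in the proB groups. The spread between proB libraries may be technical. The library titled replicate 3 of dHet proB is named replicate 2 in its source label, and it is called library 3 here after its title.

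Values are FPKM, fragment numbers relative to transcript length and to a measure of library size, so levels of different genes can be compared per length. How library size was scaled is not stated. The files hold no counts, so the depth of each library is unknown and no counting error can be given. No libraries held identical values, and FPKM sums ranged from 505261 to 638953. Summed FPKM of 10 B lineage markers was 6271 to 9035 in B-ALL, 8480 to 10920 in dHet proB and 7496 to 7894 in wt proB, with none of the 10 at 0 in any library. Ebf1 itself was at 151 to 212 FPKM in B-ALL, 283 to 369 in dHet proB and 297 to 542 in wt proB. Pax5 was at 35.3 to 52.8, 70.9 to 99.0 and 57.2 to 101 FPKM in the same order. Rag2 was at 8.57 to 12.6 FPKM in the libraries labelled Rag2-/-, beside 11.1 to 16.6 in B-ALL and 31.1 to 37.8 in wt proB, and FPKM per gene does not show which exons the reads came from.

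Marker genes of other cell types were at unequal levels in the groups, and cells of the B lineage can express some of them. Summed FPKM of 11 neutrophil and monocyte markers was 540 to 562 in wt proB, 28.6 to 262 in B-ALL and 13.9 to 51.7 in dHet proB, where 4 to 8 of the markers were at 0. The 7 T cell markers in the files summed to 99.1 to 331 in B-ALL, 45.9 to 62.6 in dHet proB (5 or 6 at 0) and 51.8 to 59.4 in wt proB. Sums of 7 NK cell markers were 49.8 to 333, 8.03 to 35.2 and 37.9 to 42.5, and those of 8 plasmacytoid dendritic cell markers were 278 to 2503, 906 to 984 and 2008 to 2590. The 8 red cell and megakaryocyte markers summed to 8.18 to 508, 1.52 to 1.55 and 9.80 to 33.8, and the 8 stromal markers to 25.3 to 70.7, 45.6 to 85.9 and 63.2 to 67.6. Single genes carried some of these sums: Ly6d was at 168 to 2196 FPKM and Lck at 44.9 to 325. Siglech, a defining plasmacytoid dendritic cell gene, was at 77.3 to 132 FPKM in wt proB, 0.0150 to 1.65 in B-ALL and 0 in dHet proB. Cd3e, a defining T cell gene, was at 1.18 to 5.41 FPKM in B-ALL, 0 in dHet proB and 0.273 to 0.671 in wt proB. The part of other cells in the results below was not tested.

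Promoter sequence is shown for 4 starts: Bax, Bbc3 and Bcl2l11, whose 250 bases before the start held a match to a searched motif, and the outermost start of Bcl2l1, the most changed of the 3 anti-apoptotic members, which held none. The sequences are RefSeq's on GRCm38.p6, whereas the expression files were made on mm9, and no coordinate was converted. Motifs were searched on both strands: TTCNNNGAA (bound by STAT5), GTAAACA (FOXO), CACGTG (MYC and other E-box factors), TGATGNAA (ATF4 with CHOP) and the p53 half-site. Capitals mark the matches. Bax lies at chr7:45466899-45467148 on the minus strand, Bbc3 (start 2) at chr7:16310011-16310260 on the plus strand, Bcl2l11 (start 1) at chr2:128125788-128126037 on the plus strand, and Bcl2l1 (start 3) at chr2:152831729-152831978 on the minus strand.
Bax: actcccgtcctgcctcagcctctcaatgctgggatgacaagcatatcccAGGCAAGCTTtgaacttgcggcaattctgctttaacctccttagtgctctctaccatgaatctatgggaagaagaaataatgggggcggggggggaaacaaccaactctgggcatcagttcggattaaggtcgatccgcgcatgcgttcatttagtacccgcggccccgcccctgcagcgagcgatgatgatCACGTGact
Bbc3: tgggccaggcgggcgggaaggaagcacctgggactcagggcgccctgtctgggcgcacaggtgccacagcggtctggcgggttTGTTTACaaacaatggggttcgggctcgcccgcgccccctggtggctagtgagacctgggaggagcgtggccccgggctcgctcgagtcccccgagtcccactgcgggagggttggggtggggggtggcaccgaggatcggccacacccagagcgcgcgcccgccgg
Bcl2l11: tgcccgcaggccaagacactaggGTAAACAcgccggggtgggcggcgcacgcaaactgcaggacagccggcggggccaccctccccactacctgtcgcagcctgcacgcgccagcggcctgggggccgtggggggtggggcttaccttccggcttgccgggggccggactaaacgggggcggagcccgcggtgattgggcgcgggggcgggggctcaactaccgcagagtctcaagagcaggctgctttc
Bcl2l1: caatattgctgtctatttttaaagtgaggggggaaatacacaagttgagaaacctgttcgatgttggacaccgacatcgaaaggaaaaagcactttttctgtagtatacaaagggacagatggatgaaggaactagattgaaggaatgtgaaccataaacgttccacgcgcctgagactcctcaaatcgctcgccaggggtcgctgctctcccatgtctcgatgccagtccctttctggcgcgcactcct
The Bax window held CACGTG 9 bases before the start and a p53 half-site 201 bases before it. GTAAACA stood 167 bases before start 2 of Bbc3 and 227 bases before start 1 of Bcl2l11. Start 3 of Bbc3 held a further CACGTG 64 bases before it. Over the 15 starts of the 9 members used, GTAAACA was present at 2 (3.17% of all 32851 promoters), CACGTG at 2 (6.02%) and the p53 half-site at 1 (7.13%). TTCNNNGAA (7.02% of all promoters) and TGATGNAA (3.45%) were at 0 of the 15. None of the 5 matches overlapped another, and 11 starts held none. The promoter of Pmaip1 was not used here. A match describes letters only.

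Among the anti-apoptotic genes, Bcl2l1 (BCL-XL, which protects developing lymphoid cells) was the one that separated leukemic from non-leukemic cells in both comparisons. Its FPKM was 47.0 and 45.5 in mouse 686, 111 and 99.1 in 713 and 62.8 and 41.2 in 760. The dHet proB libraries gave 234, 243 and 230 FPKM, and the wt proB libraries 168 and 295. Every B-ALL library was below every proB library of either kind. In bulk RNA, fewer cells that express a gene and less RNA per cell cannot be told apart. Against dHet proB, Bcl2l1 fell by 1.89 on the log2(FPKM + 1) scale (SE 0.33, 95% interval -2.65 to -1.13, 3.71-fold lower, limma adjusted p = 0.00711). Against wt proB it fell by 1.81 (SE 0.37, interval -2.65 to -0.96, 3.50-fold lower, limma adjusted p = 0.0142). Between dHet and wt proB the difference was 0.08 (interval -0.76 to 0.93, limma adjusted p = 0.934). The call against wt proB was lost without wt library 1 (log2 difference -2.21) and without wt library 2 (-1.41), each leaving 1 library in that group.

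Mcl1, a short-lived protein needed throughout B cell development, was lower in B-ALL than in wt proB. It was at 11.6 and 12.4 FPKM in mouse 686, 16.6 and 19.5 in 713 and 12.7 and 11.7 in 760. In dHet proB it was at 23.1, 17.2 and 22.1 FPKM, and in wt proB at 29.1 and 35.2. All B-ALL libraries lay below both wt libraries, while mouse 713 overlapped the lowest dHet library. Mcl1 fell by 1.15 on the log2 scale against wt proB (SE 0.23, interval -1.68 to -0.63, 2.23-fold, limma adjusted p = 0.0124). The difference from dHet proB was -0.55 (SE 0.20, interval -1.02 to -0.08, limma adjusted p = 0.0822) and did not pass, although it did without mouse 713 (-0.73, 0.0276). All dHet proB libraries were below the wt libraries, with a log2 difference of -0.61 (SE 0.23, interval -1.13 to -0.08) that did not pass (limma adjusted p = 0.158). The call against wt proB was lost without wt library 1 (log2 difference -1.29) and without wt library 2 (-1.02), each leaving 1 library in that group.

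Bcl2, the founding anti-apoptotic member, did not pass in any comparison. It was at 2.31 and 5.26 FPKM in mouse 686, 9.73 and 12.5 in 713 and 2.59 and 4.59 in 760. The dHet proB libraries gave 2.16, 2.21 and 37.2 FPKM, and the wt libraries 7.40 and 5.95. Library 3 of dHet proB alone was high, above all 10 other libraries. The log2 difference was -0.22 against dHet proB (interval -2.34 to 1.91, limma adjusted p = 0.885) and -0.29 against wt proB (interval -2.66 to 2.09, 0.864). Without dHet library 3 the first was 0.98, the reverse direction. The same library stood apart at the survival kinases Pim1 (670 FPKM, against 135 and 151 in libraries 1 and 2) and Pim2 (117, against 8.74 and 8.36) and at Myc (290, against 9.39 and 42.3). Bcl2 shares 558 exonic bases with D630008O14Rik on the opposite strand in GENCODE M21, which has no values here.

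**Figure D1:**
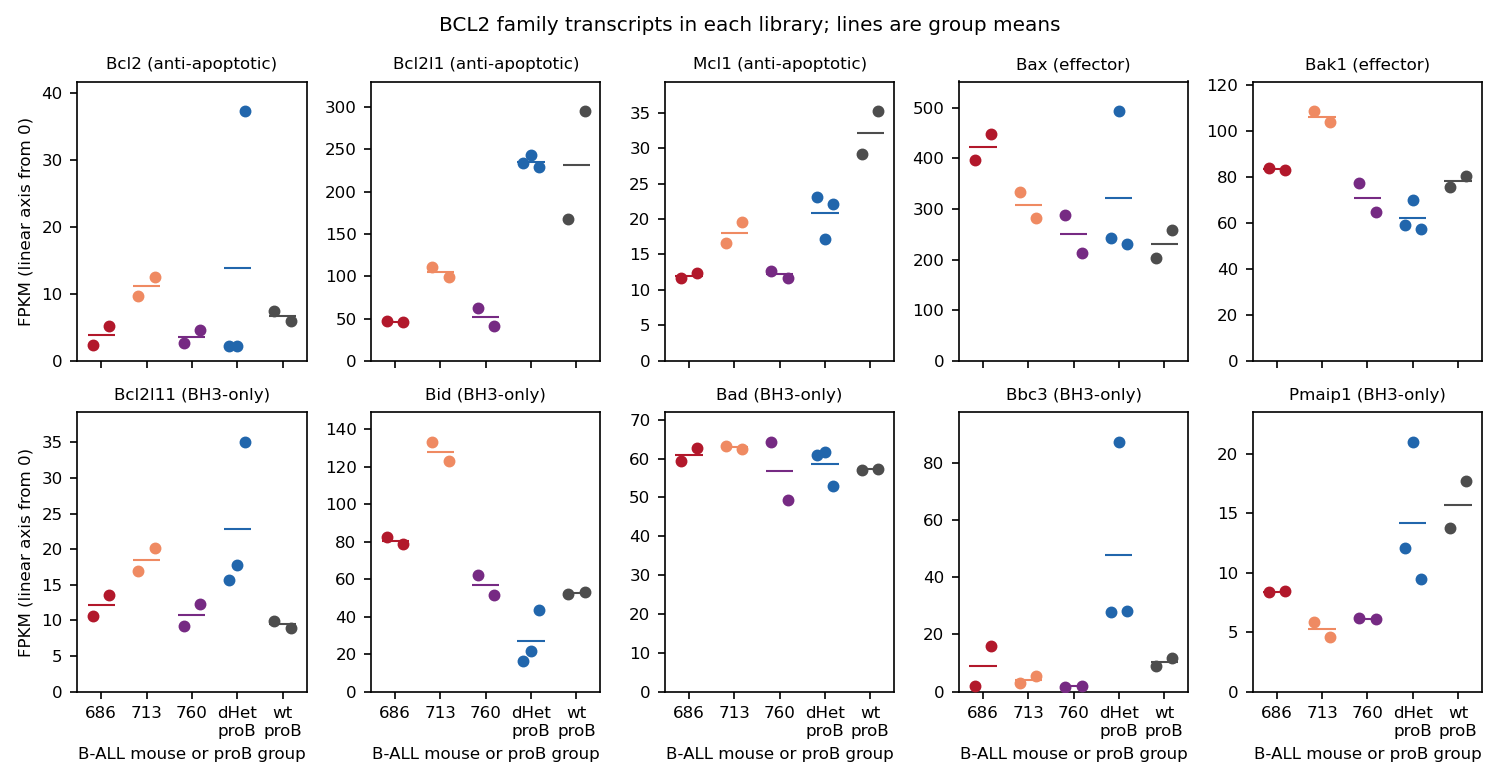
FPKM of each of the 10 family genes (linear axis from 0) in every library, for the 3 B-ALL mice and the dHet and wt proB groups; points are libraries and horizontal lines are group or mouse means. Bcl2l1 sits between 41.2 and 111 FPKM in B-ALL and at 168 or more in all 5 proB libraries, and 1 dHet proB library stands alone at 37.2 for Bcl2.

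The effectors, whose oligomers open the outer membrane, were not called in any comparison. Bax was among the most abundant transcripts measured, above 95.3 to 98.4% of tested genes in every library. Its FPKM was 398 and 448 in mouse 686, 334 and 281 in 713 and 289 and 214 in 760, beside 242, 493 and 231 for dHet proB and 203 and 258 for wt proB. The groups overlapped, with the highest value in dHet library 2. The log2 difference was 0.47 against wt proB (interval -0.36 to 1.31, limma adjusted p = 0.391) and 0.07 against dHet proB (interval -0.68 to 0.82, 0.893). Bax shares 192 exonic bases with the coding gene Gm45808 on the same strand in GENCODE M21. Gm45808 has no values here, and its reads' part in the Bax values was not tested.

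Bak1, the other effector, was at 83.6 and 82.9 FPKM in mouse 686, 108 and 104 in 713 and 77.3 and 64.7 in 760. For dHet proB the values were 59.1, 69.8 and 57.5 FPKM, and for wt proB 75.7 and 80.4. B-ALL overlapped both proB groups, and dHet proB lay below wt proB. The difference was 0.46 against dHet proB (SE 0.17, interval 0.06 to 0.86, limma adjusted p = 0.0850) and 0.13 against wt proB (interval -0.31 to 0.57, 0.666). An exon of Bak1 shares 614 bases with Ggnbp1 on the opposite strand in GENCODE M21, and whether strand was used in the authors' counting is not stated. Ggnbp1 was at 8.26 to 37.1 FPKM in B-ALL, 0.0614 to 0.420 in dHet proB and 1.80 to 2.75 in wt proB, and its reads' part in the Bak1 values was not tested.

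The 5 BH3-only genes differed in direction. Bid, whose protein is cleaved by caspase-8 to link death receptors to the mitochondrion, was higher in B-ALL than in dHet proB. Its FPKM was 82.4 and 78.5 in mouse 686, 133 and 123 in 713 and 62.1 and 51.3 in 760, beside 16.2, 21.8 and 43.8 for dHet proB and 52.3 and 53.4 for wt proB. Every B-ALL library was above every dHet proB library, whereas mouse 760 overlapped wt proB. Bid rose by 1.70 on the log2 scale against dHet proB (SE 0.39, interval 0.80 to 2.60, 3.25-fold, limma adjusted p = 0.0182). Against wt proB the difference was 0.65 (interval -0.36 to 1.66, limma adjusted p = 0.326). All dHet proB libraries were below wt proB (log2 difference -1.05, interval -2.06 to -0.04, limma adjusted p = 0.203). The call against dHet proB was lost without mouse 686 (1.73, limma adjusted p = 0.0541) and without dHet library 1 (1.40, 0.0639). Bid shares 628 exonic bases with Bcl2l13 on the opposite strand, which was at 7.81 to 12.0 FPKM over all libraries.

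Bbc3 (PUMA, a p53 target that binds every anti-apoptotic member) showed the widest difference of the 10 members. It was at 1.84 and 16.0 FPKM in mouse 686, 3.04 and 5.33 in 713 and 1.73 and 1.96 in 760. Values of 28.0, 87.2 and 28.4 FPKM were reached in dHet proB, beside 8.97 and 11.9 in wt proB. All B-ALL libraries were below all dHet proB libraries, and library 2 of mouse 686 was above both wt libraries. Bbc3 fell by 3.19 on the log2 scale against dHet proB (SE 0.49, interval -4.31 to -2.07, 9.10-fold lower, limma adjusted p = 0.00469). The difference from wt proB was -1.29 (SE 0.54, interval -2.54 to -0.04, limma adjusted p = 0.132). The proB groups did not overlap either, with dHet above wt by 1.89 (SE 0.54, interval 0.64 to 3.14), which did not pass (limma adjusted p = 0.0744). Library 2 of dHet proB, which had the highest Bbc3, also had the highest Bax and Pmaip1 and a sum of 1143 FPKM over 8 proliferation markers, against 722 and 480 in libraries 1 and 3, and the part of this was not tested. Without it, the difference of B-ALL from dHet proB was -2.65 (limma adjusted p = 0.00590). With the libraries of a mouse entered separately and the mouse as a random effect it did not pass (limma adjusted p = 0.0744).

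Pmaip1 (NOXA, which targets MCL1 for degradation) was at 8.37 and 8.43 FPKM in mouse 686, 5.84 and 4.63 in 713 and 6.17 and 6.12 in 760. The dHet proB libraries gave 12.0, 21.0 and 9.44 FPKM and the wt libraries 13.7 and 17.7. All B-ALL libraries lay below both proB groups. Pmaip1 fell by 1.15 on the log2 scale against wt proB (SE 0.33, interval -1.92 to -0.39, 2.22-fold lower, limma adjusted p = 0.0479), close to the threshold of 0.05. It did not pass against dHet proB (-0.95, SE 0.30, interval -1.63 to -0.26, limma adjusted p = 0.0503), but did in 5 of 26 settings (lowest adjusted p 0.0264), among them without dHet library 3. The call against wt proB held in 15 of 26 settings, with adjusted p from 0.0207 to 0.281, and was lost on leaving out any 1 mouse, library 2 of mouse 686, dHet library 1 or either wt library.

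Bcl2l11 (BIM, which removes self-reactive and cytokine-starved lymphocytes) was at 10.6 and 13.6 FPKM in mouse 686, 16.9 and 20.2 in 713 and 9.22 and 12.3 in 760. The dHet proB libraries had 15.7, 17.8 and 35.0 FPKM and the wt libraries 9.99 and 8.89. B-ALL overlapped both proB groups, and dHet proB lay above wt proB. No difference passed: -0.64 against dHet proB (interval -1.38 to 0.09, limma adjusted p = 0.168), 0.46 against wt proB (interval -0.36 to 1.28, 0.392), and 1.11 for dHet against wt proB (SE 0.36, interval 0.29 to 1.93, 0.106). Bad, which phosphorylation by survival kinases keeps inactive, varied least, from 49.2 to 64.2 FPKM over all 11 libraries. Its group means were 60.2 ± 3.18 (SD, n = 3 mice), 58.5 ± 4.93 (n = 3) and 57.2 ± 0.126 (n = 2) in B-ALL, dHet proB and wt proB. The interval of its log2 difference was -0.25 to 0.32 against dHet proB and -0.25 to 0.38 against wt proB. Bad shares 524 exonic bases with Gpr137 on the opposite strand, which was at 5.45 to 12.7 FPKM.

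Counted over the family, 3 of 10 members were lower in B-ALL than in wt proB (Bcl2l1, Mcl1 and Pmaip1) and 0 were higher by limma, where 18.2% of all 11110 tested genes were called, 10.0% lower and 8.15% higher. At an unadjusted p under 0.05, 4 members were lower and 0 higher, beside 18% and 17.1% of all tested genes. Against dHet proB, 2 members were lower (Bcl2l1 and Bbc3) and 1 higher (Bid), where 25.5% of tested genes were called, 11% lower and 14.5% higher. With 10 members, neither count is far from the share among all genes. Between dHet and wt proB 0 of 10 passed in limma, where 8.68% of tested genes were called, 2.18% higher and 6.50% lower. At an unadjusted p under 0.05, 2 members were higher in dHet proB (Bcl2l11 and Bbc3) and 2 lower (Mcl1 and Bid), beside 8.94% and 13.6% of all tested genes. The B-ALL comparisons share the B-ALL libraries, and each proB group also serves in 2 comparisons.

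Without overlap between libraries, 3 members were below and 0 above wt proB in B-ALL, where 24.7% of tested genes were below and 23.5% above. Against dHet proB 3 members were below and 1 above, where 15.5% and 19.5% of tested genes were. For dHet against wt proB, 3 members were below (Mcl1, Bak1 and Bid) and 2 above (Bcl2l11 and Bbc3), where 24.1% and 18.9% of tested genes were. The median log2 difference of the members was -0.11 against wt proB, -0.38 against dHet proB and -0.02 for dHet against wt proB, where that of all tested genes was -0.02, 0.04 and -0.04. With 3 units against 2 or 3, an exact two-sided permutation test of 1 gene cannot go below p = 0.1, so none was used.

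**Figure D2:**
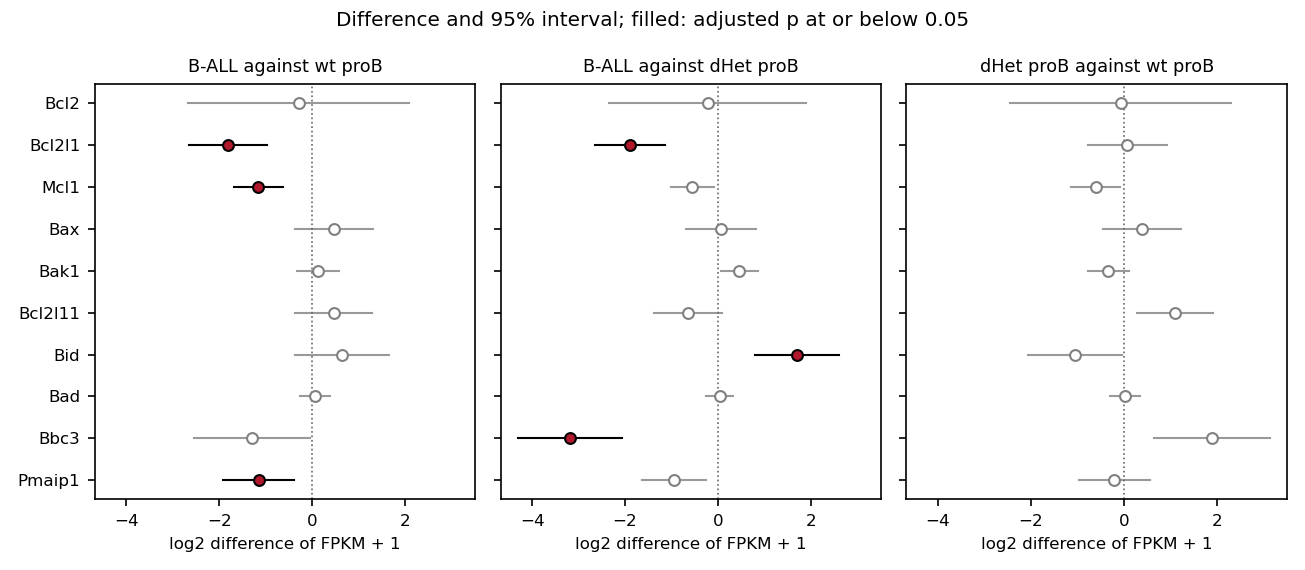
Log2 difference of FPKM + 1 for each family gene (horizontal axis) in the 3 comparisons, with 95% intervals as bars; filled points have an adjusted p at or below 0.05. Filled points are Bcl2l1, Mcl1 and Pmaip1 against wt proB and Bcl2l1, Bid and Bbc3 against dHet proB, with none between the proB groups.

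Summed by role, the anti-apoptotic genes together gave 88.0 ± 40.2 FPKM in B-ALL (SD, n = 3 mice), 270.3 ± 16.3 in dHet proB (n = 3) and 270.3 ± 92.9 in wt proB (n = 2). The B-ALL mice spanned 62.1 to 134 FPKM and the proB libraries 205 to 336, with no overlap. Bcl2l1 made up 76.5% ± 1.86 of this sum in B-ALL, 87.4% ± 7.00 in dHet proB and 85.0% ± 3.97 in wt proB, and Mcl1 16.9% ± 3.08, 7.71% ± 1.18 and 12.3% ± 2.66. The effector sum was 414 ± 91.9 FPKM in B-ALL, 384 ± 155 in dHet proB and 309 ± 41.9 in wt proB, of which Bax was 78.6% ± 4.63, 82.7% ± 4.24 and 74.5% ± 2.38.

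The BH3-only sum differed by less than its spread, at 174 ± 43.4 FPKM in B-ALL, 171 ± 38.3 in dHet proB and 146 ± 5.08 in wt proB, but its makeup was different. Bid was 49.5% ± 8.05 of it in B-ALL, 16.2% ± 8.44 in dHet proB and 36.3% ± 0.732 in wt proB. Bbc3 was 2.84% ± 2.07, 26.5% ± 13.3 and 7.16% ± 1.20 in the same order. Bad held 35.8% ± 7.07, 35.5% ± 9.0 and 39.3% ± 1.28. These sums and shares are descriptions and were not tested.

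**Figure D3:**
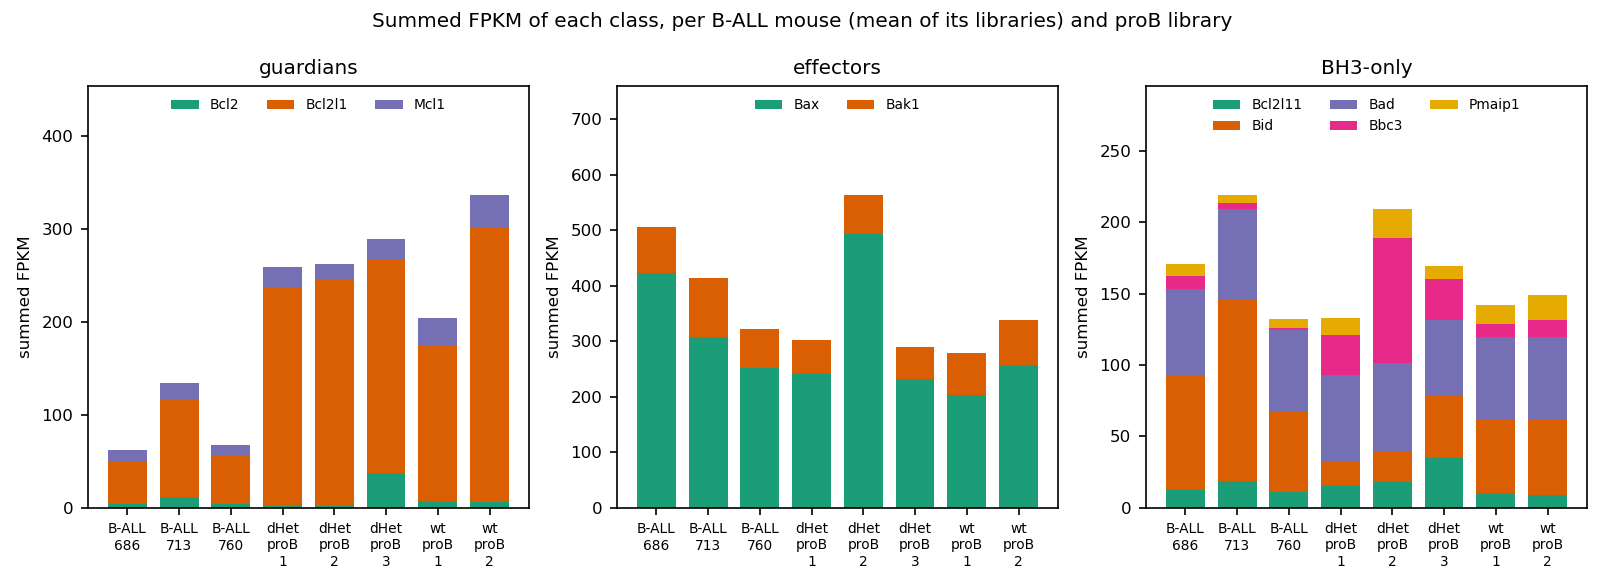
Summed FPKM (vertical axis, from 0) of the anti-apoptotic genes (guardians), effectors and BH3-only genes, stacked by gene, for each B-ALL mouse (mean of its libraries) and each proB library. The anti-apoptotic sum is 62.1 to 134 in B-ALL and 205 to 336 in proB libraries, while the BH3-only stacks overlap in height, from 132 to 219, and the Bid segment is larger in each B-ALL mouse than in each dHet proB library.

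Ratios between members compare their transcript levels within each mouse or library, and protein was not measured here. Bcl2l1 over Bid was 0.575, 0.822 and 0.917 in mice 686, 713 and 760, so Bid exceeded Bcl2l1 in the mean of each mouse, although in library 1 of mouse 760 Bcl2l1 was at 62.8 and Bid at 62.1 FPKM. For dHet proB the ratio was 14.4, 11.1 and 5.24, and for wt proB 3.21 and 5.52. Bcl2l1 over Bcl2l11 was 3.82, 5.66 and 4.83 in the mice, 14.9, 13.7 and 6.56 for dHet proB, and 16.8 and 33.2 for wt proB. Both ratios were lower in every B-ALL mouse than in every proB library. Mcl1 over Pmaip1, whose protein binds MCL1, overlapped between the groups at 1.43, 3.45 and 1.98, then 1.92, 0.821 and 2.35, then 2.12 and 1.98. Bax over Bak1 was 2.90 to 5.08 in B-ALL, which overlapped both proB groups, 4.02 to 7.06 in dHet proB and 2.68 to 3.20 in wt proB.

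By FPKM level, Bax was the highest of the 10 in every library but wt library 2, where Bcl2l1 was. Bak1 stood above 81.8 to 88.7% of tested genes and Bad above 78.2 to 82.4%, both narrow ranges. Bcl2l1 covered 74.4 to 97.3%, Bid 54.6 to 90.9% and Mcl1 46.0 to 72.2%. The widest ranges were those of Bbc3, 15.4 to 87.0%, and Bcl2, 17.8 to 73.4%. Bcl2l11 ranged from 39.2 to 71.9% and Pmaip1 from 28.2 to 60.9%.

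The mice also differed among themselves, measured against the spread between libraries and not between animals. Bcl2l1 averaged 46.3, 105 and 52.0 FPKM in mice 686, 713 and 760 (limma F test, adjusted p = 0.0184, and 0.0213 with the library number as a block). Bak1 averaged 83.2, 106 and 71.0 FPKM (adjusted p = 0.0355, and 0.0504 with the block, which did not pass). Mouse 713 was highest at both. It was also highest at Mcl1 (12.0, 18.1 and 12.2 FPKM, adjusted p = 0.0740) and Bid (80.5, 128 and 56.7, adjusted p = 0.101), which did not pass. Thus 2 of 10 members differed between mice, where 22.3% of 11293 tested genes did. Neutrophil and monocyte markers summed to 28.6 to 28.7 FPKM in mouse 760 and 260.4 to 262 in mouse 686. T cell markers, mostly Lck, summed to 275 to 331 and 99.1 to 99.8. Mouse 713 was between them at both, and also for NK cell and stromal markers. It was highest in plasmacytoid dendritic cell markers, at 2437 to 2503 FPKM, against 278 to 285 in 686 and 593 to 664 in 760. That list includes Ly6d, which was high in some libraries, while the defining gene Siglech was far lower in every B-ALL library than in wt proB. Red cell and megakaryocyte sums of mouse 713 were also highest, at 405 to 508 FPKM, against 8.18 to 10.4 and 107 to 133. The part of these markers was not tested.

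Libraries of the same mouse differed at a few members. On FPKM + 1, Bbc3 was 5.98-fold higher in library 2 than in library 1 of mouse 686, a log2 difference of 2.58 that was larger than those of 99.5% of tested genes. In mice 713 and 760 it was 1.57-fold and 1.09-fold higher on the same scale. Bcl2 was higher in library 2 of all 3 mice, by 0.92, 0.33 and 0.64, and Bcl2l11 by 0.32, 0.24 and 0.38. Bcl2l1 was lower in library 2 in each mouse, by -0.05, -0.16 and -0.60. The labels do not say how the libraries of a mouse were made.

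**Figure D4:**
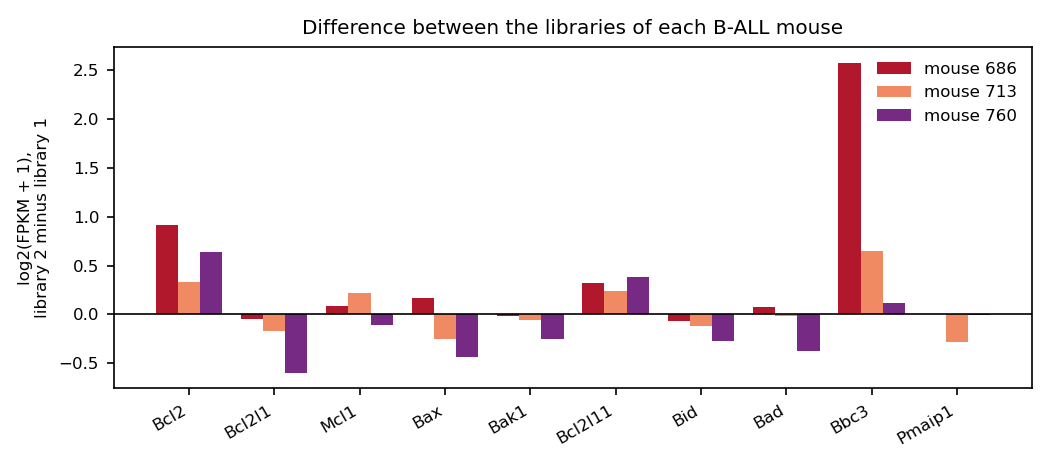
Difference in log2(FPKM + 1) between library 2 and library 1 (vertical axis) for each family gene, with 1 bar for each of the B-ALL mice 686, 713 and 760. Bbc3 in mouse 686 stands out at 2.58, and the bars of Bcl2, Bcl2l11 and Bbc3 are above 0 in all 3 mice.

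Transcript composition varied widely among the members. The longest coding transcript of Bbc3 had 65.2% GC in GENCODE M21, above 99.5% of 19870 genes, and Pmaip1 had 42.1%, where the median gene had 49.3%. Bcl2l1 was at 55.9% and Bid at 50.4%. The part of base composition in the Bbc3 values was not tested. Over the 8 units, the tested genes whose log2(FPKM + 1) was most like that of Bcl2l1 were Synj1 (Pearson r = 0.978), Fbxw2 (0.978) and Ccm2 (0.977), and 248 of 10507 genes had r of 0.9 or more. Ccm2 averaged 103 FPKM in B-ALL, 230 in dHet proB and 188 in wt proB. Most like Bbc3 were Asns, which makes asparagine (r = 0.982), Trim24 (0.977) and Plod2 (0.961), with 62 genes at 0.9 or more. Asns averaged 0.119, 17.9 and 2.03 FPKM in B-ALL, dHet proB and wt proB. These correlations share libraries and group differences and are descriptions.

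Other members of the wider BCL2 family differed mainly from dHet proB. Of 16 listed, 12 were tested, and against dHet proB 4 were higher in B-ALL and 3 lower, where 14.5% and 11% of all tested genes were. Bok, an effector-like member, was at 75.4 ± 33.7 FPKM in B-ALL (n = 3), 5.86 ± 4.41 in dHet proB (n = 3) and 26.3 ± 4.42 in wt proB (n = 2), and rose by 3.56 against dHet proB (limma adjusted p = 0.00267). Bnip3, a hypoxia-induced mitophagy receptor, was at 14.1 ± 4.60, 78.3 ± 12.6 and 18.4 ± 4.37 FPKM and fell by 2.43 against dHet proB (limma adjusted p = 0.00147). Its relative Bnip3l fell by 0.81 (0.0122) and Bmf, a BH3-only gene, fell by 1.68 (0.0429). Bmf was lost in 8 of 26 settings. Bcl2l14, counted among those higher, was at 1.40 ± 0.997 FPKM in B-ALL and 0.0131 ± 0.0227 in dHet proB. Bcl2l14 reached the filter only through B-ALL mice, so its call is not read. Bcl2a1a and Bcl2l15 also reached it only through B-ALL mice, and neither passed.

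Against wt proB 0 of the 12 were higher in B-ALL and 1 lower by limma, where 8.15% and 10.0% of all tested genes were. At an unadjusted p under 0.05 in limma, 3 were higher and 1 lower, beside 17.1% and 18% of all tested genes. Bcl2l15 was among the higher ones and reached the filter only through B-ALL mice. The lower one was Bcl2a1d, treated below. Neither of them is read. In dHet against wt proB, 1 was higher and 3 lower (median -0.19), where 2.18% and 6.50% of all tested genes were. Bnip3 rose by 2.03 (limma adjusted p = 0.00495) and Bok fell by 2.16 (0.0407), the latter lost in 8 settings. Bcl2a1b and Bcl2a1d, anti-apoptotic genes with near-identical copies between which reads may be split, were listed at 0 in every dHet proB library. Bcl2a1b was at 2.48 ± 1.71 FPKM in B-ALL and 3.93 ± 1.09 in wt proB, and Bcl2a1d at 0.485 ± 0.470 and 1.86 ± 0.572. Bcl2a1b passed as higher in B-ALL than in dHet proB (limma adjusted p = 0.0207), and as lower in dHet than in wt proB (0.0159). Bcl2a1d is in the counts as lower than in wt proB in both B-ALL and dHet proB. Bcl2a1d reached the filter of 1 FPKM only in the wt libraries and, by a small margin, in mouse 686 (1.41 and 0.601 FPKM in its libraries). Its values lie near that limit, so these calls are not read.

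Of 18 tested genes acting after the pore opens, 4 were higher and 1 lower in B-ALL against dHet proB (median 0.08), where 14.5% and 11% of all tested genes were. Against wt proB 4 were higher and 2 lower (median 0.07), where 8.15% and 10.0% of all tested genes were. Endog, a mitochondrial nuclease, was at 34.2 ± 4.02 FPKM in B-ALL, 8.60 ± 1.33 in dHet proB and 7.94 ± 0.966 in wt proB, although mouse 686 gave 10.1 and 59.4 in its libraries. It rose by 1.71 and 1.80 against dHet and wt proB (limma adjusted p = 0.00189 and 0.00191). Htra2, a protease released through the pore, rose by 0.89 and 0.99 (0.00984 and 0.0114), and Cycs, cytochrome c, by 1.15 against dHet proB (0.0180). Vdac1, an outer membrane channel, rose by 0.76 against wt proB (0.0371), a call lost in 8 settings. Among inhibitor-of-apoptosis genes, Birc2 fell by 1.29 (0.00582) and Birc3 fell by 1.17 (0.0158) against wt proB, and Birc3 fell by 0.73 against dHet proB (0.0438), the last lost in 10 settings. For dHet against wt proB, 0 of 18 were higher in limma (1 at an unadjusted p under 0.05) and 1 lower, Birc2, which fell by 0.86 (0.0415). In that comparison 2.18% of all tested genes were higher (8.94% unadjusted) and 6.50% lower.

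Kinases and ubiquitin enzymes that act on family proteins gave 1 higher and 3 lower of 10 against dHet proB (median -0.24), where 14.5% and 11% of all tested genes were. Pim3, a kinase that inactivates BAD, rose by 0.95 (limma adjusted p = 0.0180). Btrc, an F-box protein of a ubiquitin ligase, fell by 1.15 (0.00609), Gsk3b fell by 0.86 (0.0101) and Akt2 fell by 0.67 (0.0150). Against wt proB Btrc alone passed and fell by 1.17 (0.00916), with 0 higher in limma and also 0 higher at an unadjusted p under 0.05 (median -0.31). Of all tested genes 10.0% were lower there and 8.15% higher (17.1% unadjusted). Between the proB groups 0 of 10 passed in limma, where 8.68% of all tested genes did. At an unadjusted p under 0.05 in limma 1 was lower, beside 13.6% of all tested genes (median 0.01).

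The list of transcription factors acting on family genes also held Mdm2, the ubiquitin ligase that degrades p53, and its 13 tested genes were lower where they passed. In B-ALL 5 were lower and 0 higher against each proB group, Mdm2, named after its values were seen, among the 5 both times (median -0.46 against wt proB and -0.21 against dHet proB). Of all tested genes 10.0% and 11% were lower, and 8.15% and 14.5% higher. At an unadjusted p under 0.05 in limma, 0 of the 13 were higher against wt proB and 2 against dHet proB. The shares of all tested genes were 17.1% and 22.3%. Foxo1, which drives Bcl2l11 and Rag transcription, was at 13.0 ± 6.14 FPKM in B-ALL, 41.2 ± 5.32 in dHet proB and 34.8 ± 0.781 in wt proB. It fell by 1.77 against dHet proB (limma adjusted p = 0.00522) and fell by 1.54 against wt proB (0.0143). Library 2 of each mouse was higher in Foxo1, at 4.51 and 12.9, 12.0 and 28.0, and 7.90 and 12.4 FPKM. Ddit3 (CHOP, a stress factor that raises Bbc3 and Bcl2l11) was at 7.48 ± 3.77, 19.5 ± 3.82 and 37.6 ± 7.24 FPKM and fell by 1.36 against dHet proB (0.0198) and fell by 2.28 against wt proB (0.00520). Rel, an NF-kappaB subunit that raises Bcl2l1 and Bcl2a1 genes, was at 5.61 ± 0.309, 10.8 ± 1.28 and 13.2 ± 0.551 FPKM and fell by 0.83 (0.00832) and fell by 1.10 (0.00477) in the same order. In dHet against wt proB 0 were higher in limma (also 0 at an unadjusted p under 0.05), where 2.18% of all tested genes were (8.94% unadjusted). Atf4 alone was lower, where 6.50% of all tested genes were. It fell by 1.08 (0.0231), from 99.8 ± 7.46 FPKM in wt proB to 47.5 ± 11.7 (median of the list -0.22).

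Death receptor genes, which feed into Bid through caspase-8, gave 0 of 7 calls by limma in every comparison. Of all tested genes 25.5% were called in B-ALL against dHet proB, 18.2% against wt proB and 8.68% between the proB groups. At an unadjusted p under 0.05 in limma, 2 were lower in B-ALL against each proB group, beside 18% of all tested genes each time. In dHet against wt proB 1 was higher, beside 8.94%. The median log2 differences were -0.36 against dHet proB, 0.04 against wt proB and -0.02 between the proB groups.

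Many of these calls depended on which libraries were kept. Against wt proB, every named gene of these lists that passed was lost in limma when either wt library was left out. Exceptions were Endog, which still passed, and Mdm2, which was not refitted. The same loss was seen for every named gene that passed between the proB groups. Leaving out a wt library leaves 1 in that group and lowers power. Such a loss therefore does not show that the value of a single library made the call. Endog was lost without library 2 of mouse 686, both against dHet proB (log2 difference 1.30) and against wt proB (1.40). Foxo1 was also lost against wt proB without library 1 of mouse 713 (-1.35) and with library 2 of each mouse only (-1.03). With the mouse as a random effect, Foxo1 was lost against dHet proB (adjusted p = 0.141) and wt proB (0.275), and so was Endog (0.283 and 0.335). Against dHet proB, Akt2, Bcl2a1b, Cycs, Ddit3 and Pim3 were lost without mouse 686 or without dHet library 1 (adjusted p from 0.0548 to 0.0687), as was Ddit3 without dHet library 2 (0.0515). Of the named genes, Bok, Bnip3, Bnip3l, Btrc, Gsk3b, Htra2 and Rel passed against dHet proB in all 26 settings.

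**Figure D5:**
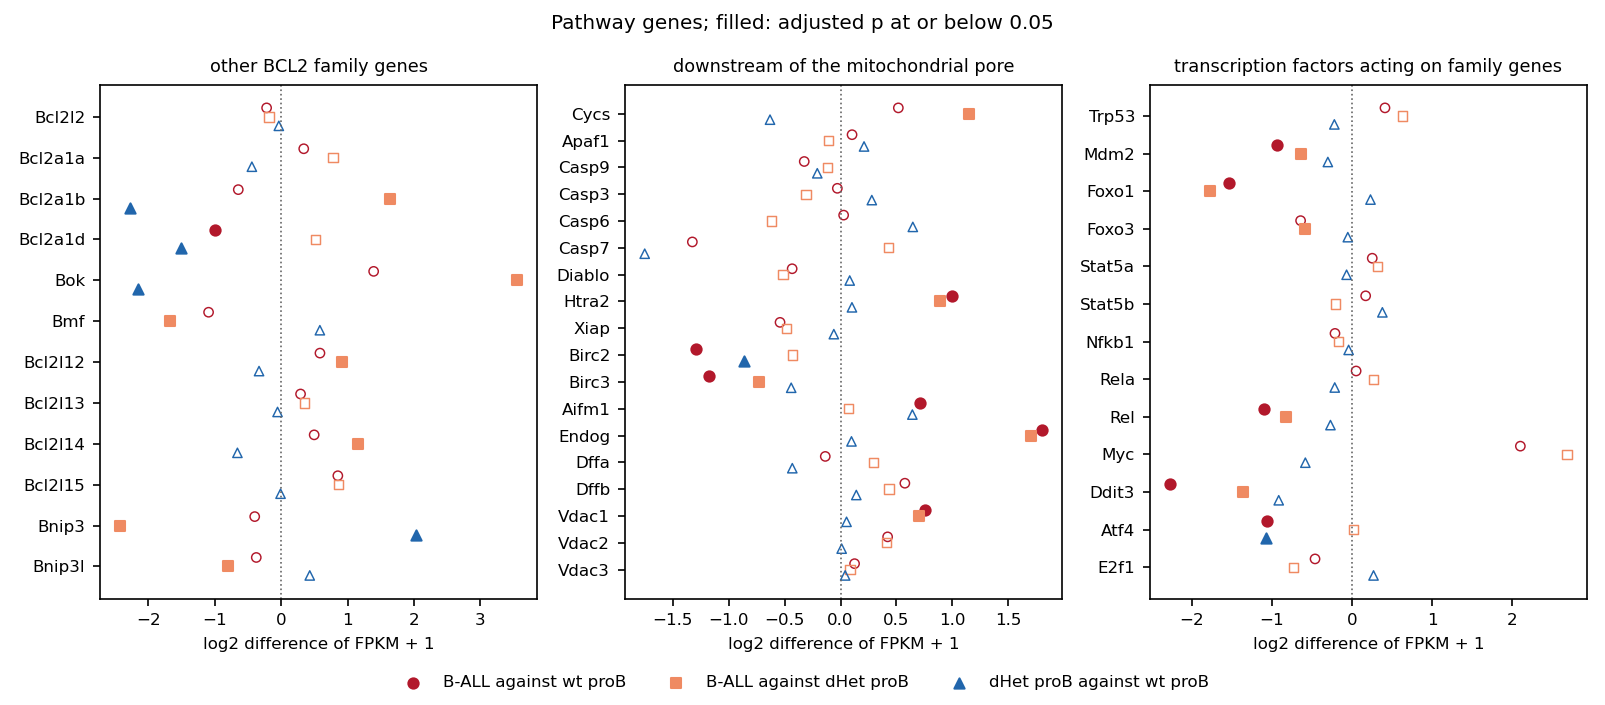
Log2 difference of FPKM + 1 (horizontal axis) for other BCL2 family genes, genes downstream of the mitochondrial pore and transcription factors, with circles, squares and triangles for B-ALL against wt proB, B-ALL against dHet proB and dHet against wt proB; filled symbols have an adjusted p at or below 0.05. Bok against dHet proB lies at 3.56, Bnip3 at -2.43, and Foxo1, Rel and Ddit3 are filled on the negative side in both B-ALL comparisons.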

How the data were processed

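RNA was sequenced in 11 libraries. Bcl2fastq, STAR 2.5.3a, Cuffdiff and version 2.2.1 of Cufflinks and of Cuffnorm, with the mm9 build, are named per the submitters' processing notes. Neither the annotation nor the Cuffnorm scaling is stated there. The authors deposited FPKM per gene and library, so no count test applies and depth is unknown.

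FPKM values were analysed as log2(FPKM + 1), which understates changes of low genes. Libraries from 1 B-ALL mouse were averaged on that scale, giving 8 units. A gene was tested if its FPKM was 1 or more in 2 or more units (11110 genes). The limma 3.58.1 package (R 4.3.3) was fitted to all groups with a mean-variance trend. Its p-values are two-sided, with Benjamini-Hochberg adjustment over all tested genes at 0.05 within each comparison. Every adjusted p in the text, also in brackets, is of this kind. The limma F test over all 11 libraries compared the mice. SDs for B-ALL are over mouse means. The procedure was tested on simulated data.

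The main F test had no term for library number, which entered as a block only in an alternative fit. For the B-ALL mice, deviations of same-numbered libraries from their mouse means correlated at 0.640, 0.135 and 0.207. All 10 members were named. Of the genes of each other list that passed, the 3 (or fewer) most changed per direction and comparison were named, as were the 3 genes most like the most changed member. The Pim and Myc values of dHet library 3 were chosen after they had been seen. Members and lists were chosen with earlier results of these data known. Alternatives were other pseudocounts, filters, scalings (TPM, quantile, equal medians), library choices, models and leaving out each library or mouse.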

Additional observations from a re-analysis of the deposited data

How the results depend on the processing

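Over the alternatives run, Bcl2l1 was lower in B-ALL than in dHet proB in 26 of 26 settings (log2 difference -2.26 to -1.67). With 1 library or mouse left out at a time, the number of members lower in B-ALL than in wt proB ranged from 0 to 3, being 0 without either wt library; against dHet proB, those lower ranged from 2 to 3 and those higher from 0 to 1, being 0 without mouse 686 or dHet library 1. A lone wt library is assumed to vary like the other groups. Rescaled to TPM, 4 members were lower than in dHet proB instead of 2; that scaling shifted the median of all genes by -0.19 against wt proB and -0.16 against dHet proB, and the share of calls that were higher fell from 44.9% to 23.8% and from 57.0% to 38.8%. Quantile normalization gave 46.5% against dHet proB, and 41.8% instead of 25.1% for dHet against wt proB.

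Fitted on only the 6 B-ALL libraries, 8 members differed between mice instead of 2, where 5073 of 10640 tested genes did instead of 2513 of 11293. With the replicate block it was 1. Numbers of the dHet and wt libraries showed no pairing (same-numbered deviations correlated at -0.006 and 0.010), and with the replicate block 94 genes were higher and 435 lower in place of 242 and 722, with 0 members called either way.

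The sign turned only for differences that had not passed. Against dHet proB, Bad was -0.140 (TPM), -0.0726 (quantile), -0.0115 (equal medians) and -0.0153 (library 2 of each mouse only), and -0.0327 to 0.101 with 1 library or mouse left out. Bax was -0.106, -0.110 and -0.0123 (TPM, quantile, library 2 only) and -0.131 to 0.424 with 1 mouse or library left out (-0.120 without dHet library 3), and Bcl2 0.0962 (library 2 only), 0.0116 and 0.0228 without mouse 686 or 760, and -0.822 to 0.976 with 1 library left out, highest without dHet library 3. Against wt proB, Bad was -0.135 (TPM) and -0.0839 (quantile), Bak1 -0.0708, -0.0309 and, without mouse 713, -0.0244, and Bcl2 0.0276 (library 2 only). For dHet against wt proB, Bad was -0.0113 (quantile) and -0.012 to 0.0984 with 1 left out. Bcl2 was 0.153 (pseudocount 5), 0.178 (quantile), 0.0062 (equal medians) and -1.26 to 0.535 with 1 left out. Bcl2l1 was -0.323 to 0.485 with 1 left out, lowest without wt library 1, and Pmaip1 -0.509 to 0.0274 with 1 left out, highest without dHet library 3, and 0.0274 with the replicate block. Apart from those given above, the causes were not tested. Depth is unknown, so low values such as those of Bcl2 and Bbc3 have no counting error.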
